A study of Homo sapiens with 24 samples.

Results

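Small nucleolar RNAs (snoRNAs) and their Cajal body relatives (scaRNAs) were examined in A375, an established human melanoma cell line. The members are the genes whose symbols begin with SNORA, SNORD or SCARNA followed by a digit, that averaged at least 1 FPKM over the 6 DMSO libraries, ranked by that average and capped at 150. They are 150 genes of 25268 in the table: 60 SNORA, 75 SNORD and 15 SCARNA genes. Of 381 symbols that match the pattern, 192 reached the level, so the cap set the edge. Just inside it lay SCARNA20, SNORA53 and SNORA5C at 43.7, 42.9 and 40.7 FPKM, and just outside it SNORA81, SNORA62 and SNORA76A at 35.9, 32.9 and 32.0 FPKM. The members were chosen by their FPKM in DMSO, so each level in DMSO and each difference from DMSO is given as a description without a test. U3, U8, U14 and U17, the snoRNAs best known for pre-rRNA cleavage, were not analysed here.

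H/ACA snoRNAs (SNORA) guide the change of uridine to pseudouridine and C/D snoRNAs (SNORD) guide ribose methylation, mostly in ribosomal RNA. The scaRNAs (SCARNA) do the same for the spliceosomal RNAs in the Cajal body, and some carry both kinds of box. In human cells most of them are cut out of introns of host genes, many of which encode ribosomal proteins or translation factors, and are held by 4 core proteins of their class. DKC1, GAR1, NHP2 and NOP10 bind the H/ACA class, and FBL, NOP56, NOP58 and NHP2L1 the C/D class.

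The study comprised 24 libraries in 8 groups of 3. Cells were given A771726 at 25 µM together with nucleotides, A771726 at 25 µM alone, nucleotides alone, or the solvent DMSO, each for 24 or 48 h. A771726 is the active metabolite of leflunomide and inhibits DHODH, an enzyme of de novo pyrimidine synthesis. The groups ask whether the drug changes RNA levels and whether supplied nucleotides remove the change. Which nucleotides were supplied, and at what dose, is not given in the sources used here. Whether the 3 libraries per group came from separate cultures is not said in the labels. The p-values therefore measure spread among libraries that may be technical. All groups are of 1 cell line.

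The values are FPKM, fragments scaled for gene length and library size, with no counts, so sequencing depth is unknown. The members held 22.6% to 37.5% of the FPKM sum of 22 libraries (median 29.2%). Called here the libraries that stood apart, A771726 replicates 1 and 2 at 48 h were unlike all others, with FPKM totals of 231144 and 2283905 and 64 and 126 members listed at 0, against 24 to 51 in the other 22. At 24 h the sums also differed between groups. They ran over 573390.0 to 682517 in A771726 with nucleotides, 459325 to 582736 in A771726, 693359 to 773002 in nucleotides and 729588 to 769509.7 in DMSO. Of the 22 libraries, A771726 replicate 1 at 24 h had the lowest sum. Its median Spearman correlation with the others was also the lowest of the 22, at 0.894, where their median was 0.960. Of 10 pigment cell and melanoma markers, 6 had a median of at least 1 FPKM, with SOX10 present and TYR and DCT at or near 0. The summed level of that list at 24 h was 799 to 836 FPKM in A771726 with nucleotides, 437 to 575 FPKM in A771726 and 764 to 847 FPKM in nucleotides. VIM, a general mesenchymal gene, had by far the highest median of the list, at 717 FPKM, followed by SOX10 at 37.3 FPKM. Of 5 leukocyte markers only LYZ had a median of at least 1 FPKM, and PTPRC and CD3E were at or near 0. That list summed to 5.70 to 5.91 FPKM in A771726 with nucleotides, 14.9 to 28.1 FPKM in A771726 and 5.59 to 5.92 FPKM in nucleotides. Of 4 keratinocyte and 5 fibroblast and endothelial markers, 2 and 1 had a median of at least 1 FPKM. The fibroblast and endothelial list summed to 1.20 to 1.28 FPKM in A771726 with nucleotides, 2.42 to 3.22 FPKM in A771726 and 0.959 to 1.42 FPKM in nucleotides, and the keratinocyte list to 11.1 to 13.5, 11.3 to 15.9 and 13.0 to 13.9 FPKM in these groups. At 24 h the A771726 libraries thus lay outside the range of the other 2 groups in the pigment, leukocyte and fibroblast lists. The part of these shifts in the results was not tested.

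The sequences below show the boxes that define the classes and how alike a pair of copies can be, for members on which results turn. They are those of GENCODE 29 on GRCh38, given from the gene's start, whereas the authors aligned to hg19. Capitals mark the ACA box near the end of the SNORA members, and the TGATGA (box C) near the start and CTGA (box D) near the end of the SNORD members. SNORA24 (chr4:118279190-118279320, plus strand) was among the members with the lowest adjusted p-values for A771726 against nucleotides at 24 h. SNORA21 (chr17:38852863-38852994, minus strand) and SNORA63 (chr3:186787300-186787431, plus strand) were called in both 24 h comparisons of A771726.
SNORA24: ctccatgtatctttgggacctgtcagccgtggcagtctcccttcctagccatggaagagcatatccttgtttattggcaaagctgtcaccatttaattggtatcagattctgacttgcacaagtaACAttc
SNORA21: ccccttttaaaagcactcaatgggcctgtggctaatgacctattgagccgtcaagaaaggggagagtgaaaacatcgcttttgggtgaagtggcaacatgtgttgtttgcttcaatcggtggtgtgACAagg
SNORA63: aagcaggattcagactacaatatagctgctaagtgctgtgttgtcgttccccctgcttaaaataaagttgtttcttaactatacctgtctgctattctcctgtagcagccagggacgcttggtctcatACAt
SNORD10 (chr17:7576811-7576952, plus strand) lies in the same host gene as the 2 called members SNORA48 and SNORA67.
SNORD10: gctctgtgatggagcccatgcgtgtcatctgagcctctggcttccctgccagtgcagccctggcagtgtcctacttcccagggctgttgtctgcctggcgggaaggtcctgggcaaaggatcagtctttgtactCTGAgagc
SNORD116-14 (chr15:25080142-25080233, plus strand) and SNORD116-20 (chr15:25087662-25087753, plus strand) are copies of 1 family, counted below from 1 at the 5′ end.
SNORD116-14: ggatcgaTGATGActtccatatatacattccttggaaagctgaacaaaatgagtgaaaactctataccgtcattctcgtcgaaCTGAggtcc
SNORD116-20: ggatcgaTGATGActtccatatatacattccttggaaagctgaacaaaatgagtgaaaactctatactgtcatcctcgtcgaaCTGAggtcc

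The printed letters carry the boxes as the class does. ACA stood within the last 8 bases of 51 of 54 SNORA members with a GENCODE sequence (94.4%), against 11.1% of 206635 GENCODE transcripts of at least 40 bases. TGATGA stood within the first 20 bases of 48 of 68 SNORD members (70.6%), against 0.575% of those transcripts, and CTGA within the last 15 bases of 66 of 68 (97.1%), against 7.19%. SNORD10 holds the CTGA and no TGATGA in its window. Only the strand of the gene was searched, and a match is a description of letters.

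In DMSO the members of highest FPKM were SNORD95 and SNORD76, which averaged 21599 and 21255 FPKM over the 6 libraries. FPKM of such short genes can rest on few fragments, so this order is not one of RNA amounts. SNORD95, of 68 bases, was listed at 0 in 2 of the 21 libraries outside A771726 at 48 h. Its lowest value above 0 there was 8469 FPKM. Of the SNORA class, SNORA48 (15193), SNORA63 (10194), SNORA70 (8974) and SNORA68 (8038 FPKM) led, and of the SNORD class SNORD55 (7876) and SNORD10 (7695 FPKM) came next. SCARNA2, which guides methylation of the U2 spliceosomal RNA and has its own promoter, averaged 2709.9 FPKM. SCARNA22, in an intron of NSD2, SCARNA12 and SCARNA10, which modifies the U5 RNA, followed at 1329, 1090.5 and 931 FPKM. The class medians were 572 FPKM for SNORA, 576 FPKM for SNORD and 294 FPKM for SCARNA. SNORD95 shows how uneven the short members were: it was listed at 10016, 9413 and 0 FPKM in the 3 libraries of A771726 with nucleotides at 24 h and at 32260.1, 12822 and 50581 FPKM in nucleotides. SNORA48 was listed at 10587, 10725 and 13371 FPKM in the same A771726 with nucleotides libraries and at 15638, 13426 and 14832 FPKM in nucleotides. SNORD95 thus had a 0 beside high values, and SNORA48 had none.

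Length separated the members that were always detected from those that were not. Over the 21 libraries outside A771726 at 48 h, 58 of 60 SNORA and 14 of 15 SCARNA members were never listed at 0, against 11 of 75 SNORD members. A total of 38 SNORD members were listed at 0 in 11 or more of the 21. Of 64 members shorter than 100 bases, all of them SNORD, 2 were never at 0, and of 81 that reach 100 bases, 77 were never at 0. Within the SNORD class alone, 9 of 11 members of 100 bases or longer were never at 0. The labels give an average insert of 300 bp, above the length of nearly all members (64 to 420 bases, 145 with a length), so fragments that lie within a member are shorter than the average. The part of fragment selection in these zeros was not tested. A total of 8 members were above 0 in 1 of the 21 libraries, a DMSO library in 8 of 8, so that a single value placed them among the members. Among them, SNORD29 and SNORD30 of SNHG1 and SNORD56 of NOP56 held 7727, 3545 and 4237 FPKM in that library.

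**Figure D1:**
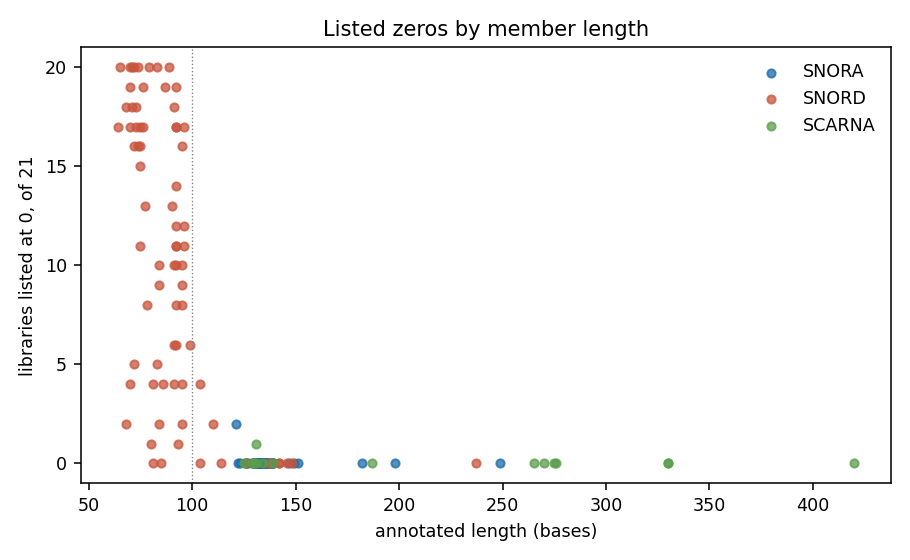
Each point is 1 of 145 members with an annotated length: the x axis gives that length in bases and the y axis the number of libraries, of the 21 outside A771726 at 48 h, in which it is listed at 0. SNORD members shorter than 100 bases (dotted line) spread up to 20 of 21, whereas nearly all longer members lie at 0.

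The 16 SNORD116 copies, brain-enriched C/D RNAs of the imprinted Prader-Willi region with no settled target, lie in SNHG14 on chromosome 15, and none was always above 0. The 10 copies of 92 bases gave 125 zeros in 210 values over the 21 libraries. Within a library, their values came in steps: 58 of the 64 values above a library's lowest one (90.6%) lay within 0.15 of a whole multiple of it, up to 6 times. The lowest value ran from 134 to 336 FPKM between libraries (median 218). A listed value near that lowest one can thus stand for 1 step, and no fold was read from it. Aligned without gaps, the 45 pairs of these copies differed by a median of 7 of 92 bases and at the least by 2. Counted position by position in this way, SNORD116-25 and SNORD116-27 differed from the other 8 copies by 43 to 48 bases. An inserted or lost base shifts all later positions, and no alignment with gaps was made, so this count is not a measure of divergence. SNORD116-14 and SNORD116-20 differ by C68T and T74C, and how the authors' counting divided reads between such copies is not given in the sources used here.

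A771726 against nucleotides at 24 h asks what the drug does relative to supplied nucleotides alone, and neither group was used to choose the members. Of the SNORA members 23 of 60 fell, led by SNORA61, SNORA20 and SNORA24, none rose and 37 did not pass the test. Of the SNORD members 2 of 75 fell, and of the SCARNA members none of 15 was called (limma, 1 at an unadjusted p under 0.05). Over all 150 members 25 fell (16.7%) and none rose, where 10.7% of the 11493 genes tested fell and 12.3% rose. The median log2 fold change was -0.61 for SNORA, -0.19 for SNORD and -0.23 for SCARNA, against 0.02 over all genes tested.

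SNORA20, of an intron of the chaperonin gene TCP1, was listed at 37.6, 57.8 and 40.8 FPKM in A771726 and 157, 201 and 92.8 FPKM in nucleotides. All 3 A771726 libraries lay below all 3 nucleotides libraries (log2 fold change -1.66 ± 0.27 SE, limma, adjusted p = 0.000247). SNORA24, of the noncoding host SNHG8, was listed at 318, 444 and 259.8 FPKM in A771726 and 984, 786 and 851 FPKM in nucleotides. The groups again did not overlap (log2 fold change -1.39 ± 0.23 SE, limma, adjusted p = 0.000257). SNORA21, of an intron of the ribosomal protein gene RPL23, was listed at 224, 298 and 267 FPKM in A771726 and 599.9, 641 and 487 FPKM in nucleotides. Every A771726 value was under 300 and every nucleotides value above it (log2 fold change -1.13 ± 0.20 SE, limma, adjusted p = 0.000539).

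SNORA61, of SNHG12, was listed at 74.7, 425 and 291 FPKM in A771726 and 709, 485 and 932 FPKM in nucleotides. Its largest fold change among the SNORA members went with a wide spread in A771726, where replicate 1 was the lowest (log2 fold change -1.70 ± 0.53 SE, limma, adjusted p = 0.0276). Among the other called members without overlap, SNORA16A averaged 377 ± 78.9 FPKM in A771726 and 885 ± 84.1 FPKM in nucleotides (SD, n = 3 each). SNORA65, SNORA40 and SNORA72 had log2 fold changes of -1.19, -1.16 and -1.10. Some members of high FPKM fell too. SNORA70 averaged 4720.3 ± 2025 FPKM in A771726 and 9411 ± 538 FPKM in nucleotides, and SNORA63 averaged 4488 ± 1147 and 8159.7 ± 238 FPKM in these groups. SNORA48, of the highest FPKM of its class in DMSO, was listed at 5237, 11650.3 and 10528 FPKM in A771726 and 15638, 13426 and 14832 FPKM in nucleotides. The groups did not overlap (log2 fold change -0.76 ± 0.23 SE, limma, adjusted p = 0.0253).

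The decrease was not shared by every SNORA member. In 54 of 60 the log2 fold change was below 0, against 47.6% of all genes tested. In 26 all A771726 libraries lay below all nucleotides libraries and in 1 above them, against 16.5% and 17.7% of all genes tested. SNORA47 ran the other way, with a mean of 151 ± 67.2 FPKM in A771726 and 94.6 ± 30.5 FPKM in nucleotides, without passing the test (log2 fold change 0.63 ± 0.29 SE, limma, adjusted p = 0.139). SNORA80B, at 0.44, did not pass either, and both were picked out after their values were seen. SNORA71A, SNORA71B, SNORA71C and SNORA71D, related copies in SNHG17, had -0.31, -0.59, 0.08 and -0.37, none of them called. Reads of such related copies may have been divided between them.

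The SNORD members could be read less precisely. Their median standard error was 2.61 on the log2 scale, against 0.25 for SNORA and 0.29 for SCARNA. In the 11 SNORD members never listed at 0 the median standard error was 0.25 and the median log2 fold change -0.25, with 11 of 11 below 0 and 1 called. That member, SNORD76 of the GAS5 host, was listed at 8909, 9375 and 6982 FPKM in A771726 and 26464, 12929.5 and 12959 FPKM in nucleotides. Nucleotides replicate 1 was the highest, and the groups did not overlap (log2 fold change -0.98 ± 0.34 SE, limma, adjusted p = 0.0485). SNORD10 was listed at 6193, 9671 and 8041 FPKM in A771726 and 8648, 7167 and 9052 FPKM in nucleotides, with overlap (log2 fold change -0.07 ± 0.17 SE, limma, adjusted p = 0.801). SNORD22, or U22, which in frog oocytes is needed for maturation of the 18S rRNA, was listed at 608, 456 and 356 FPKM in A771726 and 715, 477 and 596 FPKM in nucleotides. The groups overlapped (log2 fold change -0.35 ± 0.35 SE, limma, adjusted p = 0.519). The other called SNORD member, SNORD116-15, was listed at 0 in all 3 A771726 libraries and at 462, 0 and 334 FPKM in nucleotides, which are values of few steps. The difference between the classes was not tested.

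Of the scaRNAs, SCARNA2 was listed at 3117, 4212 and 4469 FPKM in A771726 and 2876, 2843 and 3646 FPKM in nucleotides, with overlap (log2 fold change 0.33 ± 0.20 SE, limma, adjusted p = 0.258). SCARNA12 was listed at 326, 1154 and 1023 FPKM in A771726 and 1161, 1227 and 1165 FPKM in nucleotides. All A771726 values were lower, with replicate 1 lowest by far, and the test was not passed (log2 fold change -0.70 ± 0.34 SE, limma, adjusted p = 0.151). SCARNA21, also picked out after its values were seen, had 0.87, with all 3 A771726 libraries above the nucleotides libraries and an adjusted p of 0.0908 (limma). SCARNA5 and SCARNA6, both in ATG16L1, had -0.36 and 0.01.

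**Figure D2:**
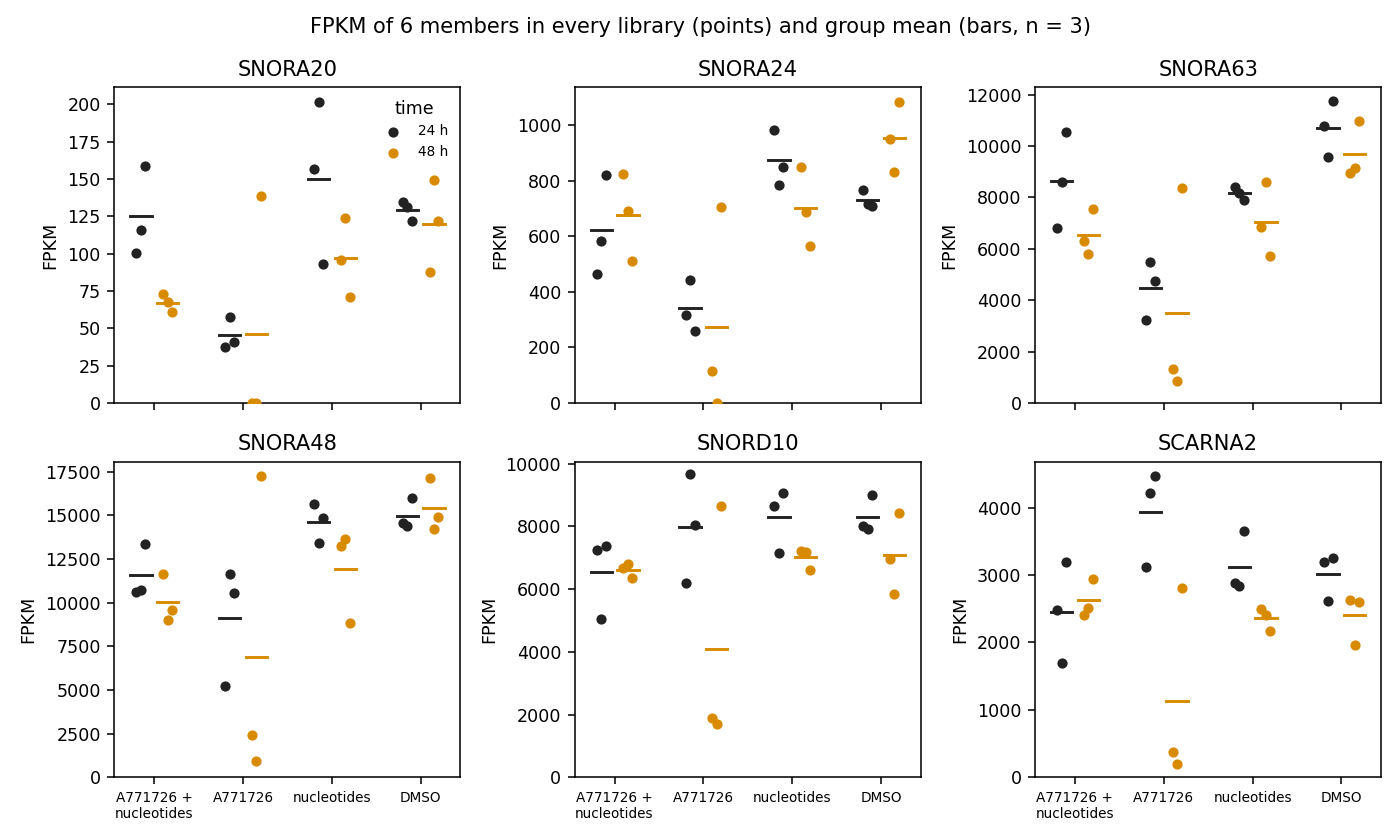
Each panel shows 1 member; the y axis is FPKM from 0, points are libraries (black 24 h, orange 48 h, replicates 1 to 3 from left to right in each group) and bars are group means (n = 3). At 24 h the A771726 libraries of SNORA20 and SNORA24 lie below all nucleotides libraries, those of SNORD10 and SCARNA2 overlap them, and at 48 h replicates 1 and 2 of A771726 lie far below replicate 3 in all 6 panels.

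Scaling bore on this comparison. Bringing each library to the same FPKM sum moved the median of all genes tested to 0.43 and gave 12 members lower and 8 higher, with 11 SNORA members lower, 2 higher and a SNORA median of -0.15. The members themselves held 22.6% to 37.5% of that sum in 22 libraries, so this scaling is not independent of them. Of all genes tested 2.31% were then called lower and 45.7% higher. Relative to all genes that SNORA median was -0.58, against -0.62 in FPKM as deposited. Quantile normalization gave 4 members lower and 8 higher, with 3 SNORA members lower, 3 higher and a SNORA median of -0.09. Of all genes tested 10.8% were then called lower and 9.21% higher. Under this scaling the SNORA decrease was thus mostly absent, and no value relative to all genes is given for it. Fitted with all 24 libraries, so that the A771726 libraries at 48 h enter the shared spread, no member was called (1.02% of all genes tested were), and with only the groups compared 6 were (7.76% of all genes). Without A771726 replicate 1, whose SNORA members had the lowest median, 15 members were called, with no share of all genes given. The SNORA medians relative to the nucleotides mean were -0.97, -0.21 and -0.59 in A771726 replicates 1, 2 and 3. SNORA20, SNORA21, SNORA24, SNORA40 and SNORA72 stayed called without any 1 of the 6 libraries, whereas SNORA61 lost its call without 3 of them, SNORA65 without 3 and SNORA16A without 5. Of those 5, SNORA21, SNORA24 and SNORA40 lost their calls after quantile normalization, and SNORA40 and SNORA72 with only the groups compared. In a bulk sample, fewer cells that hold an RNA and less of it per cell cannot be told apart.

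**Figure D3:**
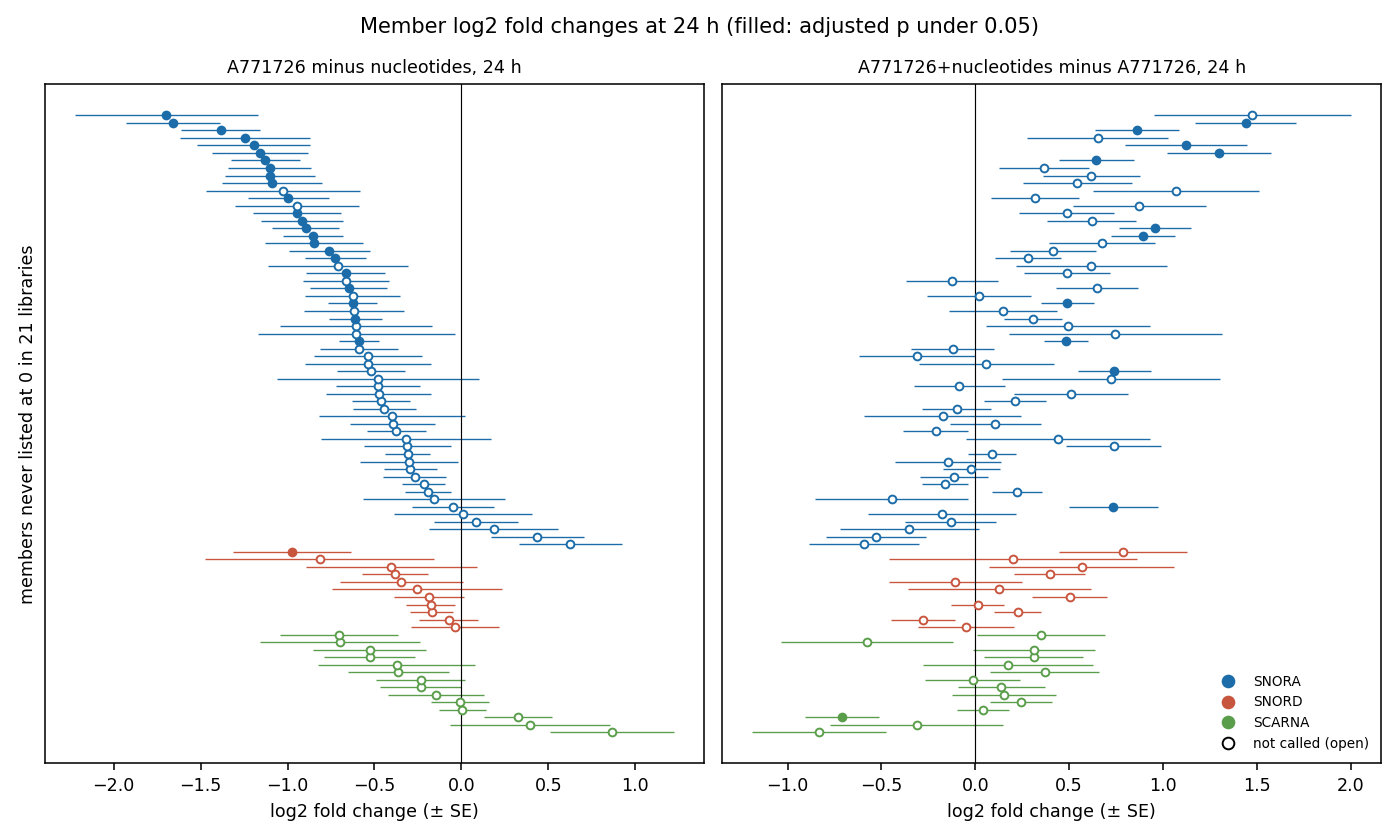
Each row is 1 of the 83 members never listed at 0 in 21 libraries, in the same order in both panels; the x axis is the log2 fold change at 24 h with its standard error, and filled points passed limma's test at an adjusted p under 0.05. Most SNORA rows lie left of 0 for A771726 minus nucleotides and right of 0 for A771726 with nucleotides minus A771726, comparisons that share the A771726 libraries.

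A771726 with nucleotides against A771726 at 24 h asks whether nucleotides change the members in the presence of the drug. The comparison shares the A771726 libraries with that of A771726 against nucleotides, so their signs are not independent. Of the SNORA members 11 of 60 rose, with SNORA20, SNORA40 and SNORA63 among them, none fell and 49 did not pass the test. Over all members 12 of 150 rose and 2 fell, where 6.09% of the genes tested rose and 11.4% fell. The median log2 fold change was 0.39 for SNORA, 0.13 for SNORD and 0.14 for SCARNA, against -0.03 over all genes tested.

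SNORA20 was listed at 101, 116 and 159 FPKM in A771726 with nucleotides, above the 3 A771726 values given before (log2 fold change 1.44 ± 0.27 SE, limma, adjusted p = 0.000998). SNORA40, 1 of 4 members in TAF1D, was listed at 592, 647 and 865 FPKM in A771726 with nucleotides and 169.8, 486 and 268 FPKM in A771726. The groups did not overlap, and A771726 replicate 1 was the lowest (log2 fold change 1.30 ± 0.28 SE, limma, adjusted p = 0.00299). SNORA63, of the translation factor gene EIF4A2, was listed at 6822, 8593 and 10530.2 FPKM in A771726 with nucleotides and 3239, 5493 and 4732 FPKM in A771726. Again the groups were apart (log2 fold change 0.96 ± 0.19 SE, limma, adjusted p = 0.00186). SNORA76C, SNORA24, SNORA53 and SNORA38 also rose without overlap, by 0.89, 0.86, 0.74 and 0.74 on the log2 scale. SNORA21 and SNORA65 rose as well, with groups that overlapped. SNORA38 had -0.05 in A771726 against nucleotides, so it was not among the members lower there.

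SCARNA2 went the other way. It was listed at 2476, 1698 and 3196 FPKM in A771726 with nucleotides and 3117, 4212 and 4469 FPKM in A771726, with replicate 3 of A771726 with nucleotides above A771726 replicate 1 (log2 fold change -0.71 ± 0.20 SE, limma, adjusted p = 0.0186). SNORD119 was listed at 0 in all 3 libraries of A771726 with nucleotides and at 206, 153 and 145 FPKM in A771726, and it was also at 0 in 2 of 3 nucleotides libraries. Its call was lost without any 1 of the 6 libraries. SNORD116-15 was listed at 339, 548 and 1115 FPKM in A771726 with nucleotides and at 0 in A771726, so no fold is given.

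With equal FPKM sums, which moved the median of all genes to -0.26, 7 members were higher and 7 lower in this comparison (6 and 3 of SNORA, with a SNORA median of 0.14), and after quantile normalization 6 higher and 10 lower (5 and 4 of SNORA, with a median of 0.01). Of all genes tested 2.58% were called higher and 25.6% lower with equal sums, and 8.22% higher and 8.86% lower after quantile normalization. Fitted with all 24 libraries no member was called (0.609% of all genes were), and with only the groups compared 4 were (2.91% of all genes). Without A771726 replicate 3, 7 members were called, with no share of all genes given. SNORA24 lost its call without replicate 3 of either group, SNORA38 without 4 of the 6 libraries and SNORA53 without A771726 replicate 3, while SNORA20, SNORA40, SNORA63 and SNORA76C kept theirs without any 1 library. Of these 4, SNORA40 and SNORA63 lost their calls with only the groups compared, and SNORA63 also after quantile normalization.

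A771726 with nucleotides against nucleotides asks what remains of the drug's effect when nucleotides are supplied. No member was called at 24 h (limma, 19 at an unadjusted p under 0.05), where 0.0348% of the genes tested were called, and none at 48 h (limma, 18 at an unadjusted p under 0.05), where 0.0261% were. SNORA medians were -0.27 at 24 h, with 47 of 60 below 0, and -0.28 at 48 h, with 52 of 60 below 0. SNORA48, the SNORA member of highest FPKM in DMSO, averaged 11561 ± 1569 FPKM in A771726 with nucleotides and 14632 ± 1119 FPKM in nucleotides at 24 h (SD, n = 3 each). SNORA63 averaged 8648 ± 1855 and 8159.7 ± 238 FPKM in these groups, and neither member was called. The test of the difference between the effects at 48 and 24 h called no member (limma, 4 at an unadjusted p under 0.05). By library, the SNORA medians relative to the nucleotides mean were -0.38, -0.35 and -0.09 at 24 h and -0.13, -0.32 and -0.35 at 48 h, so all 6 libraries lay below 0. The nucleotides libraries themselves lay at 0.08, -0.04 and -0.02 at 24 h and 0.09, 0.15 and -0.22 at 48 h. At 48 h nucleotides replicate 3 was thus below replicate 1 of A771726 with nucleotides.

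**Figure D4:**
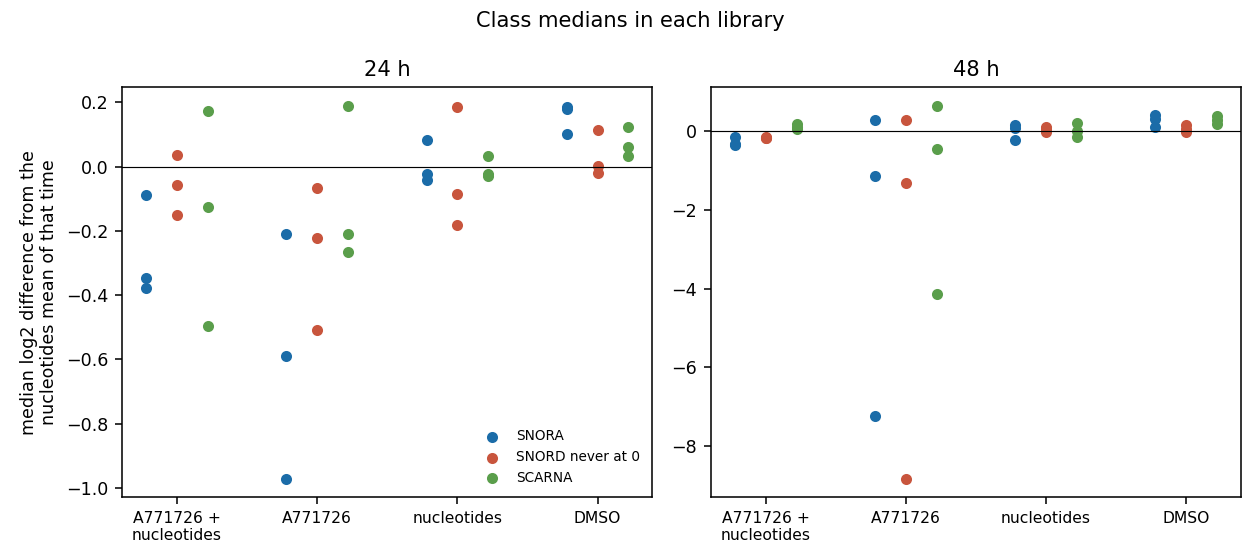
For each library, the point is the median over the SNORA members, the 11 SNORD members never listed at 0 or the SCARNA members of the log2 difference from the nucleotides mean of that time; the y axes differ between 24 h and 48 h. At 24 h A771726 replicates 1 and 3 have the lowest SNORA medians, at -0.97 and -0.59, and replicate 2, at -0.21, lies among A771726 with nucleotides, and at 48 h A771726 replicate 2 lies far below while replicate 3 lies above 0.

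At 48 h, A771726 against nucleotides rested on the libraries that stood apart. In the fit with all 24 libraries 46 members fell and 1 rose, where 57.3% of the genes tested fell and 3.36% rose, and the members' median log2 fold change was -2.14, against -0.95 over all genes. Without replicate 2 of A771726, 16 fell and 5 rose. Without replicates 1 and 2, which leaves replicate 3 alone, the members' median was 0.27. Without any 1 of the nucleotides libraries 21 to 29 were called, and without A771726 replicate 3, 85. For fits that leave out libraries the share of all genes called is not given, so these counts cannot be set against all genes. SNORA48 was listed at 2445, 948 and 17257 FPKM in A771726 and 13254, 13650.4 and 8841 FPKM in nucleotides. SNORA20 was listed at 0, 0 and 139 FPKM in A771726 and 95.9, 124 and 71.3 FPKM in nucleotides. In both, replicate 3 alone was above every nucleotides value, and the other 2 A771726 values were far below.

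A771726 with nucleotides against A771726 at 48 h turned in the same way. In the fit with all 24 libraries 31 members rose and 2 fell (56.4% and 3.52% of genes tested), with a median of 1.66 against 0.91 over all genes. Without replicates 1 and 2 of A771726 the members' median was -0.52, and without replicate 2 alone 7 rose and 8 fell. Without A771726 replicate 1, 57 members were called, without replicate 3, 83, and without any 1 library of A771726 with nucleotides 12 to 17. These counts too stand without the share of all genes called. SNORA48 was listed at 11622, 8977 and 9556 FPKM in A771726 with nucleotides, below A771726 replicate 3 and above the other A771726 libraries. No direction at 48 h is given for the members.

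In A771726 with nucleotides, 7 members fell between 24 and 48 h and none rose, where 0.479% of the genes tested fell and 1.51% rose. SNORA74A, of SNHG4, averaged 175 ± 14.6 FPKM at 48 h and 303 ± 24.3 FPKM at 24 h (log2 fold change -0.79 ± 0.13 SE, limma, adjusted p = 0.00485). The others were SCARNA4 (-1.29), SNORA38 (-0.95), SNORA53 (-0.90), SNORD94 (-0.84), SNORD17 (-0.59) and SNORA43 (-0.50), of which SNORD94 guides methylation of the U6 spliceosomal RNA. In nucleotides alone SNORA74A was the member that fell, with 199.6 ± 32.4 FPKM at 48 h and 297 ± 30.9 FPKM at 24 h (log2 fold change -0.58 ± 0.13 SE, limma, adjusted p = 0.0369), where 0.496% of the genes tested fell and 0.879% rose. The SNORA median was -0.32 in nucleotides, with 54 of 60 below 0. In A771726 with nucleotides it was -0.31, with 49 of 60 below 0. In DMSO it was -0.17, as a description. The median over all genes tested was 0.009 in nucleotides and 0.029 in A771726 with nucleotides. FPKM sums ran from 693359 to 773002 at 24 h and 597569 to 654094 at 48 h in nucleotides. In A771726 with nucleotides they ran from 573390 to 682517 and 588438 to 624908. No other scaling was run for the times, and the part of these sums was not tested.

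Against DMSO, which chose the members, A771726 at 24 h had a median log2 difference of -0.81 for SNORA (57 of 60 below 0), -0.49 for SNORD and -0.21 for SCARNA. A771726 with nucleotides had -0.46 for SNORA at 24 h, with 56 of 60 below 0. Nucleotides alone had -0.18 for SNORA at 24 h, with 50 of 60 below 0, and -0.27 at 48 h, with 55 of 60 below 0. These values are not independent of the choice of members and carry no test.

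Members were set beside the genes that hold them. By annotation 141 of 150 lie in a host gene, 93 of them in protein-coding hosts, and 70 overlap an exon of some transcript of the host, where reads of the host can fall on the member. For the 74 members never listed at 0 whose host is in the table (61 hosts), log2 fold changes of A771726 against nucleotides at 24 h had a Pearson correlation across members of 0.52 and a Spearman correlation of 0.45. Both values come from the same libraries and some members share a host, so this is a description. It was 0.57 for the 51 SNORA members, 0.67 for 12 SCARNA and 0.01 for 11 SNORD members (Pearson). In 16 pairs member and host were both called lower, in 4 the member alone, in 23 the host alone and in 31 neither. The 39 pairs with a called host hold 33 distinct hosts (54.1% of 61), and 20 of the 74 members were called lower (27.0%), where 10.7% of all genes tested were.

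EIF4A1, which encodes a translation initiation helicase, averaged 443 ± 101 FPKM in A771726 and 944 ± 56.5 FPKM in nucleotides (log2 fold change -1.12 ± 0.15 SE, limma, adjusted p = 3.94e-05). Of its 3 members, SNORA48 (-0.76) and SNORA67 (-0.63) fell and SNORD10 (-0.07) was not called. SNHG12 averaged 6.01 ± 1.26 FPKM in A771726 and 32.8 ± 2.10 FPKM in nucleotides (log2 fold change -2.28 ± 0.15 SE, limma, adjusted p = 8.05e-09), with -1.70 for SNORA61 and -0.66 for SNORA44, which was not called. RPS3 fell by 0.78, while its members SNORD15A and SNORD15B had -0.04 and -0.18 and were not called. SNHG1 had -1.79 ± 0.24 SE and SNORD22 in it -0.35. At the other end, SNORA20 (-1.66) was lower than its host TCP1 (-0.56 ± 0.15 SE), and SNORA40 and SNORA8 fell by 1.16 and 0.94 while their host TAF1D, at -0.47 ± 0.29 SE, was not called. Differences between a member and its host were not tested.

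**Figure D5:**
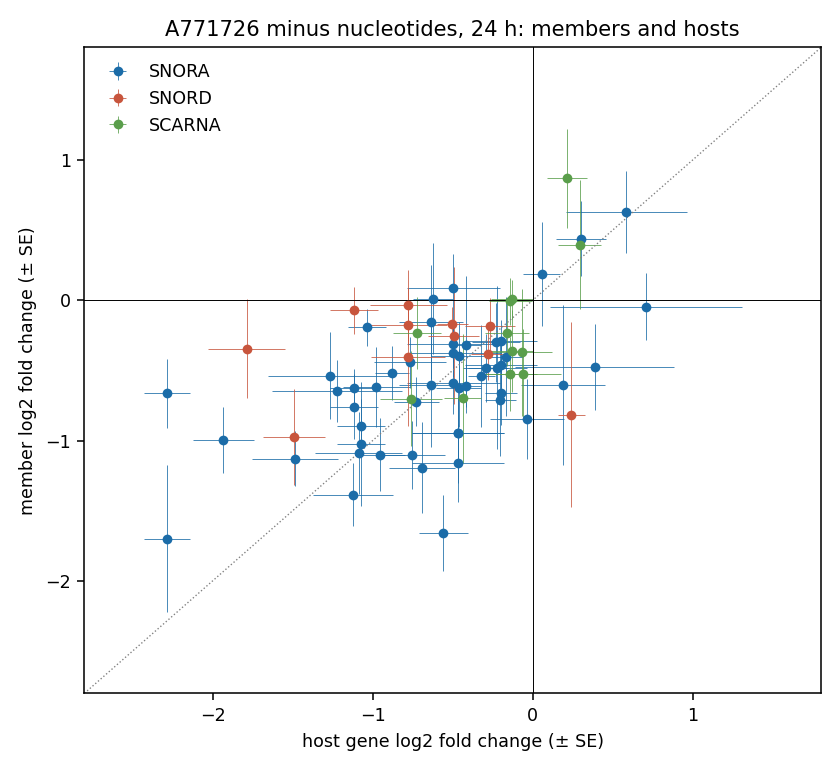
Each point is 1 of 74 members never listed at 0, with the log2 fold change of its host gene on the x axis and its own on the y axis, A771726 minus nucleotides at 24 h, bars being standard errors and the dotted line equality. Most points lie in the lower left, and several SNORD members lie near 0 on the y axis beside hosts below 0.

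The list of proteins that bind or assemble the members held 21 measured genes. In A771726 against nucleotides at 24 h 7 of them fell and none rose, where 10.7% of all genes tested fell and 12.3% rose. The median log2 fold change was -0.37 against 0.02 over all genes tested, but with equal FPKM sums 2 fell, 2 rose and the median was 0.09 (-0.35 relative to all genes). Without A771726 replicate 1 the median was -0.16, and 6 fell. Fitted with all 24 libraries 1 fell, and with only the groups compared 3 did. DKC1, the pseudouridine synthase of the H/ACA class, averaged 32.4 ± 1.27 FPKM in A771726 and 63.4 ± 3.25 FPKM in nucleotides (log2 fold change -0.94 ± 0.09 SE, limma, adjusted p = 1.68e-06). NOP56 (-0.91) and NOP58 (-0.72), scaffold proteins of the C/D class, and NHP2L1 (-0.71), which binds its kink-turn, fell as well. So did GAR1 (-0.43), the assembly ATPase RUVBL2 (-0.85) and NOLC1 (-0.45), a chaperone of the nucleolus and Cajal body. FBL, the methyltransferase of the C/D class, averaged 52.6 ± 2.60 FPKM in A771726 and 70.7 ± 6.40 FPKM in nucleotides and was not called (log2 fold change -0.42 ± 0.21 SE, limma, adjusted p = 0.174). In A771726 with nucleotides against A771726, 4 of the 21 rose and none fell, where 6.09% of all genes tested rose and 11.4% fell. The 4 were DKC1 (0.81), NOP56 (0.69), NOLC1 (0.48) and GAR1 (0.48). With equal FPKM sums 2 rose and 2 fell there, with all 24 libraries none was called, and with only the groups compared 1 was. DKC1 and NOP56 had the same sign in all alternatives of both 24 h comparisons. In A771726 with nucleotides against nucleotides none was called at 24 h (limma, 1 at an unadjusted p under 0.05) or 48 h (limma, 0 at an unadjusted p under 0.05).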

How the data were processed

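Total RNA of A375 cells, depleted of ribosomal RNA, had been sequenced with paired ends, per the labels' protocols. The deposited values are FPKM per gene symbol. Per the submitters' processing notes, the tools were cutadapt, TopHat2 2.0.11 and Cufflinks 2.2.1, with the genome build hg19. The gene annotation, the strand setting and the treatment of reads that map to several copies have no record in the sources used here. FPKM counts fragments per length, so short genes rest on few fragments, and intervals from counts cannot be given.

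From the deposited FPKM, log2(FPKM + 1) was computed, so fold changes are on that scale and understate changes of low genes. Genes that averaged at least 1 FPKM over the 21 libraries outside A771726 at 48 h were kept, 11493 in all. All 150 members passed, as their DMSO level ensures. limma 3.58.1 in R 4.3.3 was fitted over 7 groups and 21 libraries, or over 8 groups and 24 libraries for comparisons with A771726 at 48 h. Two-sided p-values were adjusted by Benjamini-Hochberg over all genes kept, and members were called at an adjusted p under 0.05. The code was tested on simulated data. No 2 libraries shared more than 0.0117% of their values above 0.

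The members, gene lists and tests were chosen with earlier results of these data known. Members were named by a rule: per class the 4 highest in DMSO, per comparison up to 8 called in each direction with the largest fold changes and no overlap, SNORD22, members at the edge of the choice or most often at 0, members that share a host with these, and proteins of the particles. The members called between 24 and 48 h, and others so marked, were named after their values were seen. Positions, hosts and sequences are those of GENCODE 29 on GRCh38, matched by symbol (138 members), and of RefSeq on GRCh38.p14 where GENCODE gave no match (7 members), while 5 members matched neither. Some sequences are not reported here. Alternatives were other scalings, filters, pseudocounts, sets of libraries and a replicate block. Where a count of calls under an alternative has no share of all genes beside it, it cannot be set against all genes.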

Additional observations from a re-analysis of the deposited data

How the results depend on the processing

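Of 1628 values of single named genes under alternatives that leave out no single library, 1453 kept their direction and side of the threshold, 151 lost the call, 22 gained it and 2 changed sign. The reversals were COIL in A771726 with nucleotides against A771726 at 48 h, at -0.42 with median-of-ratios scaling and -0.31 with quantile normalization. Genes that were never called count as kept, so the totals say little of the called ones. Of 8 named members called in A771726 against nucleotides at 24 h, 8 lost the call with all 24 libraries and 4 with only the groups compared. Of 9 in A771726 with nucleotides against A771726 at 24 h, 9 and 5 did. For A771726 against nucleotides at 24 h (25 members called, median -0.47), the median was -0.016 with TPM scaling and 0.00 after quantile normalization, with 12 called after quantile normalization, 0 with all 24 libraries and 6 with only the groups compared. For A771726 with nucleotides against A771726 at 24 h (14 called, median 0.21), the median was 0.00 with TPM scaling and 0.00 after quantile normalization, and 0 members were called with all 24 libraries and 4 with only the groups compared. These medians are over all members, some of them listed at 0 in every library compared, such as the 8 above 0 only in a DMSO library. Such members have no difference either in FPKM as deposited or with TPM scaling, and their part in the medians near 0 was not tested. The SNORA medians, given above, also moved toward 0 with both scalings. The cause was not tested here. A fit with other libraries changes both the shared spread and the number of libraries, and these were not told apart.

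At 48 h, A771726 against nucleotides (47 called, median -2.14) gave 23 calls with no filter, 12 with median-of-ratios scaling and 11 with TPM scaling. It gave 12 after quantile normalization, 1 with only the groups compared and 19 with listed zeros as missing. A771726 with nucleotides against A771726 (33 called, median 1.66) gave a median of 2.67 with a pseudocount of 0.1, and 14 calls with no filter. Median-of-ratios scaling gave 10 calls and a median of 0.96, TPM scaling 9 calls, quantile normalization 12 calls and a median of 0.70, and only the groups compared 2 calls. Listed zeros as missing gave 19 calls and a median of 0.15, and leaving out both libraries that stood apart gave a median of -0.52. A771726 with nucleotides against nucleotides at 48 h gave 1 call after quantile normalization. The shares of all genes called under these alternatives are not given, so the counts may follow the shift of all genes. The cause was not tested.

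Leaving out each replicate in turn gave medians of -0.59 to -0.31 for A771726 against nucleotides at 24 h (15 to 36 calls) and -3.47 to -0.29 at 48 h (21 to 85 calls). For A771726 with nucleotides against A771726 it gave 0.072 to 0.38 at 24 h (7 to 20 calls) and 0.00 to 3.08 at 48 h (12 to 83 calls). For A771726 with nucleotides against nucleotides it gave -0.23 to -0.034 at 24 h and -0.25 to -0.12 at 48 h, with 0 calls in each fit.

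Over the genes tested, correlations of same-numbered deviations were weak, from -0.28 to 0.26. Only in A771726 against nucleotides at 24 h were all 3 above 0, at 0.14, 0.26 and 0.093. Some genes could still follow the replicate number. NOP58, picked out after its values were seen, was highest in replicate 2 and lowest in replicate 3 in every group except A771726 at 48 h. TGS1, picked out in the same way, was also highest in replicate 2 in each of these groups. Whether replicate numbers mark a shared batch was not tested. With the replicate number as a block, A771726 against nucleotides gave 29 calls at 24 h and 46 at 48 h, A771726 with nucleotides against A771726 gave 18 and 33, and A771726 with nucleotides against nucleotides gave 0 and 0. Values near 1 step of a short member limit what can be read of the SNORD class, and the depth is unknown.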

Other observations

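SNORD17, a C/D snoRNA of 237 bases, had 1 value at 48 h far above its others. It was not alone in this, as SNORA15 had 26.6, 70.2 and 4232 FPKM as lowest, median and highest value in A771726. SNORD17 was listed at 8147, 123443 and 1851 FPKM in A771726 and at 1267, 1563 and 1505 FPKM in nucleotides. Its 2 highest values are those of the libraries that stood apart. Without these libraries its log2 fold change was 0.36 and did not pass limma's test (adjusted p = 0.124), so no direction is given. Its spread in A771726 exceeded the difference between the groups. At 24 h SNORD17 had a log2 fold change of -0.17 in A771726 against nucleotides and did not pass either.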
